A study of Mus musculus with 4 samples.

Results

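Transcript pairs that begin at the same base and end at different places were compared between control and miR-125b cells. A gene was a member when the tables listed it in 2 or more RefSeq transcript rows, all on one chromosome and strand, with one shared transcript start and at least 2 different transcript ends. The rule found 433 such genes among 21506, of which 3423 had 2 or more rows. For each member the row with the longest exon length (the long row) was set against the row with the shortest (the short row). No expression value entered the choice.

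The cells were 32Dclone3, an established mouse myeloid line grown with interleukin-3 from WEHI-conditioned medium and fetal bovine serum. The control group carried the empty XZ virus and the miR-125b group carried XZ-miR-125b, both by stable infection of the same line. There were 2 libraries per group, each from its own virus supernatant, so that p-values measure the spread between 2 infections of a single line. Poly(A)-enriched RNA was sequenced, and expression was given as RPKM. In these values the reads of a row are divided by its exon length in kilobases and by the M reads summed over all rows of the library.

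The 3′ end of an mRNA is set when the nascent transcript is cleaved downstream of a poly(A) signal and a poly(A) tail is added. A gene can end early when a poly(A) signal inside an intron is used, which can replace the end of the protein, or it can use signals in a single last exon, which changes only the length of the 3′ UTR. A miRNA pairs through its seed mainly with sites in 3′ UTRs, so transcripts of one gene with different 3′ ends can differ in whether they hold a site. miR-125b is known for its high level in blood stem cells.

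The sequence of the miRNA and of 8 sites in members are shown because the pairing of the seed with the last exon is what could set the long and short rows of a gene apart. The miRNA is from RefSeq (GRCm38.p6), with the seed, bases 2 to 8, in capitals. The sites are from GENCODE M21 transcripts (GRCm38), each with up to 21 bases before it, and capitals mark the match to the seed, CTCAGGG, with the following A where there is one (an 8mer). Each of these sites lay in the last exon of the long row and none was found in the last exon of the short row of that gene. The first 5 belong to members with a lower mean ratio of long to short row in miR-125b cells, and the last 3 to members with a higher one. They were chosen after their values were seen, to show both directions.
mmu-miR-125b-5p: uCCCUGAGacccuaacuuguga
Lrp4, first site: tcttgagttcattctcaagtgCTCAGGGA
Lrp4, second site: tcctttaggccaagggcttctCTCAGGGg
Masp2: ttttcttaggtgagcgttgggCTCAGGGA
P2rx7: gaggccgtgagcagttcatttCTCAGGGt
Il1rap: gtgagaaaatgcaaaagcgctCTCAGGGc
Klhl25: ccagctggcttcccattccacCTCAGGGA
Adrbk2: gtgcatgagggacctgtgagaCTCAGGGc
Rbbp6: cagagccaaggaccgggagcaCTCAGGGt

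The site of Rbbp6 lay in coding sequence, and the other 7 lay in an annotated 3′ UTR. Il1rap held a further match in its coding sequence.

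In 304 of the 433 members the tables held exactly 2 rows, and the most rows for a member was 14. The long row had a median of 3513 bases and the short row 1976, and their ends lay a median of 7520 bases apart on the chromosome. In 225 members the last exon of the earlier-ending row began where an exon before the last of the other row begins. This kind is called an internal exon read on. Whether the exon runs on into the following intron was not checked, and in 4930481A15Rik it does not. The row with that earlier end was the short one in 171 of them and the long one in 54. In 160 members the earlier row ended in a last exon of its own, separate from every exon of the other row. In 31 members both rows shared one last exon with 2 ends. The other 17 overlapped in another way (11) or had a chosen pair with the same end, because the differing end belonged to a further row (6). The longer row also ended further along the gene in 305 members and earlier in 122.

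Where both rows could be matched to an annotated coding transcript, which was so for 294 members, the last bases of the coding sequence differed in 257 and were the same in 37. By this match, most of these members set 2 protein ends against each other rather than 2 lengths of one 3′ UTR. The 257 include pairs that barely differ at the transcript end, such as Atp2a2 (1 base apart) and AA881470 (2 bases).

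Of the 433 members, 249 had a mean of at least 1 RPKM in both rows and were tested, and 184 were not. In 165 of the latter both rows were below that level, and 84 had no read in any library. The short row alone was too low in 14 and the long row alone in 5. Statements on the ratio in tested members concern these 249.

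The libraries held between 10.4 and 12.6 M reads summed over all rows. With 1 row per gene the sum was between 7.7 and 9.5 M. Because RPKM times exon length was a whole multiple of one step in every row (tolerance 0.001 reads), the reads behind each value could be recovered, and they show that a read in shared exons is repeated in every row of the gene. The median tested member had 414 reads in its long row and 228 in its short row, and the rows shared a median of 72.6% of the short row's bases. For pairs of the other kinds, which differ in the start, in both start and end, or only inside the gene, the shared part was a median of 100% of the short row. In the 217 tested pairs that differ in both start and end it was 86.3%. Of 8 myeloid progenitor markers in the tables, Ptprc lay between 42.4 and 57.3 RPKM and Itgam between 52.8 and 75.8, whereas Kit was at 0 in 3 libraries and at 0.02 in the other. On the same list Mpo, the granule enzyme myeloperoxidase, stood at 39.1, 54.2, 272.975 and 105.3 RPKM (unadjusted p 0.0043, adjusted p 0.41, limma) and Csf2rb, the shared beta chain of the interleukin-3 receptor, at 69.3, 59.9, 33.8 and 50.1 (unadjusted p 0.036, adjusted p 0.51). The summed lymphoid list was 34.5 and 44.9 RPKM in the control libraries against 53.3 and 86.6 in the miR-125b libraries, almost all of it Nkg7, with Cd3e, Cd79a and Ms4a1 at or below 0.27. The summed erythroid and megakaryocyte list ran from 103.3 to 233.2 RPKM and the stromal list from 4.93 to 9.94, and both overlapped between groups, with 3 genes of each at 0 throughout. Itga2b was the largest part of the erythroid and megakaryocyte sum, at 129.3, 179.3, 74.9 and 135.7 RPKM. Pdgfrb was the largest part of the stromal sum, at 4.85, 8.46, 8.53 and 2.46 RPKM. Thy1, also in the stromal list, stood at 0.26, 0.72, 1.19 and 2.31 RPKM. The part of these markers in any ratio was not tested.

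The first question was how the long and short rows of each gene compared in level. Reads in shared exons count in both rows, so a ratio near 0 does not show which end was used. On the scale log2((long row RPKM + 0.1)/(short row RPKM + 0.1)), the median ratio over the 4 libraries was -0.04, with a lower quartile of -0.38 and an upper quartile of 0.33. In 209 of 249 members the mean ratio lay between -1 and 1. It was above 1 in 16 members and below -1 in 24, and 31 members lay beyond 1 on one side in 4 of 4 libraries. The ratio stayed on one side of 0 in every library for 197 members. The extremes were -2.75 and 3.63.

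Dad1, Nsmce2, Sec14l1 and Cflar mark these extremes and were picked after their values were seen. Dad1, a subunit of the oligosaccharyltransferase that glycosylates proteins (chr14:54855160-54873604, mm9), had long-row values of 10.8, 10.5, 11.8 and 11.5 RPKM in control 1, control 2, miR-125b 1 and miR-125b 2. Its short row stood at 76.7, 66.4, 80.9 and 79.1 RPKM. The short row was thus far above the long row in all 4 libraries, and the groups overlapped in the ratio (difference -0.04, SE 0.08).

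Nsmce2, a SUMO ligase of the SMC5/6 complex (chr15:59205753-59433238), had log2 ratios of -2.46, -2.02, -2.53 and -2.62 in the same order. Its short row held between 156 and 213 reads and its long row between 79 and 90, although the long row has 2729 bases and the short row 1142. All libraries lay below -2, and control 2 was the highest.

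At the other extreme, the long row of Cflar, an inhibitor of death receptor signalling (chr1:58770130-58815726), stood at 10.8, 13.8, 9.96 and 9.14 RPKM and its short row at 1.10, 1.53, 0.90 and 1.10. The log2 ratios were 3.18, 3.09, 3.33 and 2.95, so the groups overlapped. At least 96.5% of the reads of the long row lay outside the short row in every library.

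Sec14l1 (chr11:116976486-117020580) had log2 ratios of 3.27 and 3.19 in control cells and of 3.94 and 4.11 in miR-125b cells. Its short row rested on 26, 37, 20 and 17 reads. The groups did not overlap, with a mean difference of 0.80. At so extreme a ratio the trended prior of the test is extrapolated, and the SE was 12.1 (unadjusted p 0.95). Without a trend the SE was 0.09 and the unadjusted p 0.0052, with an adjusted p of 0.54 in limma.

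Bcl2, the anti-apoptotic founder of its family (chr1:108434756-108610867), was also chosen after its values were seen. Its ends lie 173594 bases apart, one on either side of a very long intron. The long row stood at 51.0, 50.01, 43.0 and 49.2 RPKM and the short row at 38.3, 57.0, 29.8 and 38.1. The log2 ratio was 0.41 in control 1, -0.19 in control 2, 0.52 in miR-125b 1 and 0.37 in miR-125b 2. Control 2 alone was below 0, and the groups overlapped (difference 0.34, SE 0.27).

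The design's question was whether the ratio of long to short row differed between miR-125b and control cells. No member passed an adjusted p of 0.05 (limma, Benjamini-Hochberg over 1972 pairs of all kinds, 0% of which passed), and the smallest adjusted p of a member was 0.55. Without adjustment, p was under 0.05 in 23 of 249 members, or 9.24%, beside 5.83% of all pairs tested. The ratio was higher in miR-125b cells in 12 of them (4.82%, beside 2.13% of all pairs) and lower in 11 (4.42%, beside 3.7%). The 2 groups did not overlap in 93 members (37.3%), beside 34.8% of all pairs.

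The median difference, miR-125b minus control, was 0.01 over members (SD 0.22) and -0.0006 over the other 1723 pairs. A difference of at least 0.25 was seen in 45 members (18.1%) beside 3.75% of all pairs, and one of at least 0.5 in 11 members (4.42%) beside 0.913%. The differences between replicates were wider in members as well. The median absolute difference between the control libraries was 0.13 in members and 0.02 in other pairs, and between the miR-125b libraries 0.08 and 0.01. In the 217 of the other pairs that differ in both start and end, these values were 0.10 and 0.07, nearer to those of members. The SD of the miR-125b minus control difference was 0.21 in these 217 pairs. Members share fewer bases between their rows than the other 1723 pairs and hold fewer reads (medians of 228 and 443 in the short row). The part of these in the wider spread was not tested.

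Control 2 stood apart from the other 3 libraries. The median ratio of members was -0.01 in control 1, -0.08 in control 2, -0.03 in miR-125b 1 and -0.04 in miR-125b 2. The median absolute difference was 0.07 and 0.09 between control 1 and the miR-125b libraries, which is no more than the 0.13 between the controls. Against control 2 it was 0.13 for both miR-125b libraries. Over the 210 tested members with both rows matched to a transcript, the difference control 2 minus control 1 followed the difference in GC content between long and short row only weakly (Pearson r 0.22, Spearman rho 0.22, across genes of the same libraries). The difference miR-125b 2 minus miR-125b 1 gave 0.15 and 0.21. For miR-125b minus control these were -0.08 and -0.05, made up of 0.06 and 0.07 against control 1 and of -0.15 and -0.15 against control 2.

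**Figure D1:**
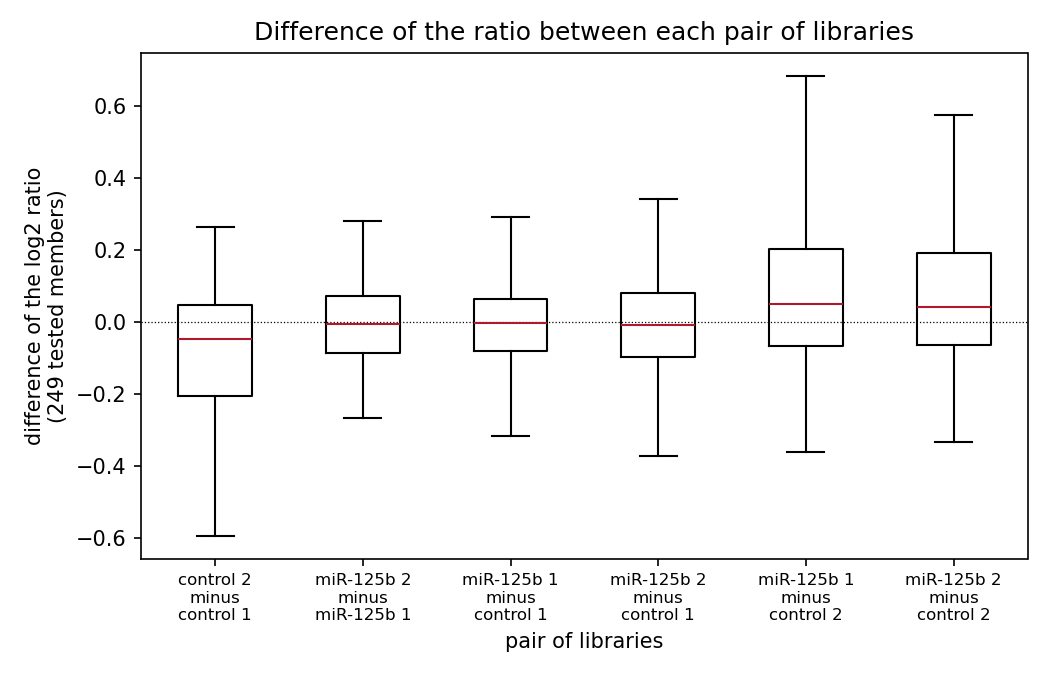
Differences of the log2 ratio between each pair of libraries over the 249 tested members. Boxes span the quartiles with the median in red, and whiskers run from the 5th to the 95th percentile. The 3 boxes that involve control 2 are wider than those among the other libraries, and control 2 minus control 1 has a median of -0.05.

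By kind of end, the median difference was 0.01 in 134 tested members with an internal exon read on, 0.03 in 89 with a separate last exon and -0.02 in 16 with one last exon and 2 ends. The middle 50% of values ran from -0.07 to 0.13 in the first of these, from -0.05 to 0.14 in the second and from -0.03 to 0.004 in the third. Where the long row was the more distal one (171 members) the median was 0.03, with 104 higher and 67 lower. Where it was the more proximal (75 members) it was 0.0009, with 38 higher and 37 lower. Over all 1972 pairs tested, 888 were higher and 1084 lower. Over the 249 tested members, the medians of miR-125b 1 and miR-125b 2 were -0.003 and -0.009 against control 1. Against control 2 they were 0.05 and 0.04, so the lean to higher ratios depends on which control is used. In pairs of the third kind the rows share nearly all of their bases (median 95.3% of the long row), which limits how far the ratio can move. In some of them the ends lie only a few bases apart, 1 in Atp2a2 and 2 in Arrdc1. Their ratios say little about the length of the 3′ UTR.

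**Figure D2:**
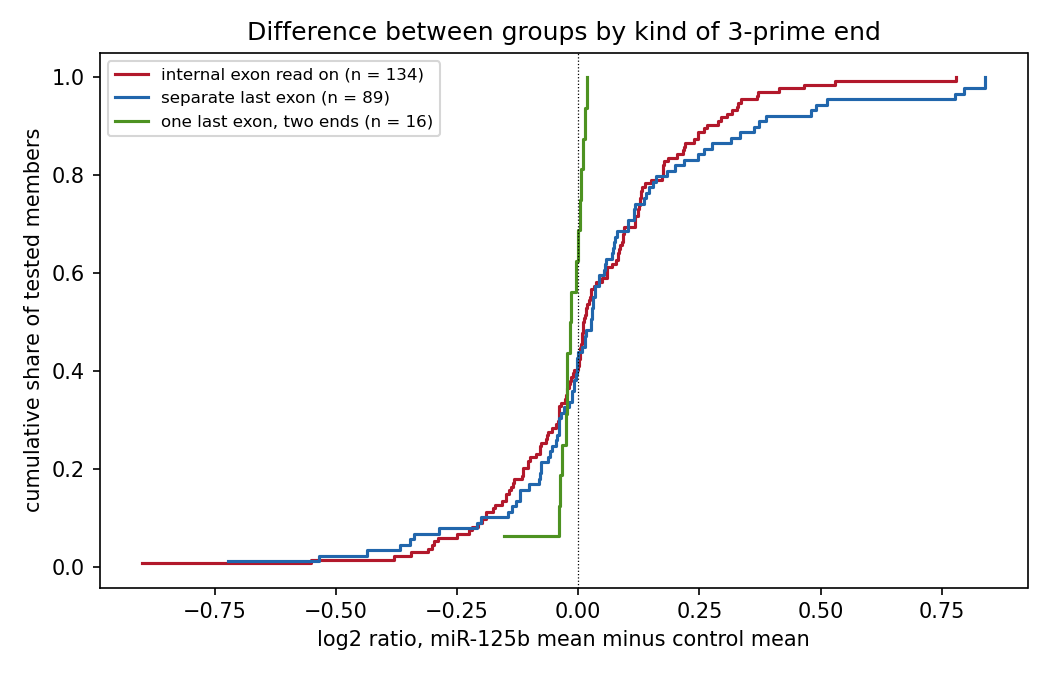
Cumulative share of tested members (y axis) by difference of the log2 ratio, miR-125b mean minus control mean (x axis), for the 3 main kinds of 3′ end. The curves for an internal exon read on and for a separate last exon nearly coincide, and the curve for one last exon with 2 ends is steep around 0.

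The 12 members with the smallest unadjusted p among those with a mean of at least 50 reads in both rows were Kdm4a, Saps2, Pdss2, Zfp1, Ankrd27, Ccnc, Rad52, Pwwp2a, Sfrs13a, Tmem194, Cdk12 and Luc7l. In each the groups did not overlap. 7 had a lower ratio in miR-125b cells and 5 a higher one, and none passed the adjusted threshold. Their adjusted p-values ran from 0.55 to 0.68.

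Among genes of chromatin and transcription, Kdm4a, a histone lysine demethylase (chr4:117809611-117852648), had log2 ratios of 0.24 and 0.26 in control and of 0.15 and 0.15 in miR-125b cells. Its long row held between 1129 and 1316 reads and its short row between 697 and 867. The difference of -0.10 (SE 0.01, unadjusted p 0.0018, limma) is small, and the libraries of a group lie very close to each other. Gene-level expression of Kdm4a differed by -0.10 (SE 0.20).

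Cyclin C (Ccnc), the partner of CDK8 in the kinase module of Mediator, is also among the reported targets of miR-125b in the list used here (chr4:21654850-21677693). Its long row stood at 7.68, 4.61, 5.38 and 5.28 RPKM and its short row, with a last exon of its own, at 7.02, 4.43, 6.41 and 6.55. The log2 ratio was 0.13 and 0.06 in control and -0.25 and -0.30 in miR-125b cells. Both miR-125b libraries lay below 0 and both controls above, a difference of -0.37 (SE 0.04, unadjusted p 0.0050, adjusted p 0.55, limma). No seed match was found in the last exon of either row. The gene-level difference was -0.14 (SE 0.25).

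Cdk12, a kinase of the RNA polymerase II tail known for keeping intronic poly(A) sites unused (chr11:98064619-98114854), had ratios of -0.17, -0.14, -0.24 and -0.27. The groups did not overlap, and the difference was -0.10 (SE 0.02). Its long row stood at 22.3, 14.7, 16.7 and 12.2 RPKM, which overlapped between groups. Pwwp2a, a reader of nucleosomes with the histone variant H2A.Z (chr11:43495500-43536135), had ratios of -0.05 and -0.11 in control and of 0.19 and 0.26 in miR-125b cells. The short row went from 10.5 and 9.21 RPKM to 7.79 and 6.24, and the long row from 10.1 and 8.49 to 8.88 and 7.49. The short row did not overlap between groups and the long row did.

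Among genes of RNA processing, Luc7l, a protein of the U1 snRNP (chr17:26389855-26422449), kept a short row at about 2 times the long row. The log2 ratios were -1.02 and -1.05 in control and -0.87 and -0.78 in miR-125b cells, a difference of 0.22 (SE 0.04). Sfrs13a, an SR-type splicing factor (chr4:135412007-135425814), had ratios of -0.26, -0.24, -0.35 and -0.39. The lowest control library lay above the highest miR-125b library by less than 0.1.

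Among the other genes of the 12, Tmem194, which encodes a protein of the inner nuclear membrane (chr10:127114121-127138103), had ratios of 0.24 and 0.27 in control and of 0.64 and 0.53 in miR-125b cells. Its short row went from 7.92 and 6.98 RPKM to 4.59 and 4.60, on 135, 110, 88 and 82 reads. Saps2, a regulatory subunit of protein phosphatase 6 (chr15:89041990-89116692), had ratios of 1.27 and 1.24 against 0.98 and 0.93. Its short row went from 2.71 and 3.12 RPKM to 3.17 and 4.20. Saps2 is one of 7 tested members with a seed match only in the last exon of the short row. Whether its match lies in coding sequence or in the 3′ UTR is not known.

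Pdss2, a subunit of the enzyme that makes the side chain of coenzyme Q (chr10:42941292-43184688), had ratios of 0.26 and 0.21 in control and of 0.48 and 0.50 in miR-125b cells. Here the long row is the proximal one. Ankrd27, an exchange factor for the endosomal GTPase Rab21 (chr7:36371266-36424256), had ratios of 1.17, 1.19, 1.02 and 1.04 on more than 1000 reads in each long row. Rad52, a protein of homologous recombination (chr6:119852716-119872840), had ratios of 0.05, 0.03, 0.13 and 0.13. For Zfp1, a zinc finger gene, the rows differ by 3 bases at the end, and its difference of -0.04 rests on between 0 and 3 reads of about 100.

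**Figure D3:**
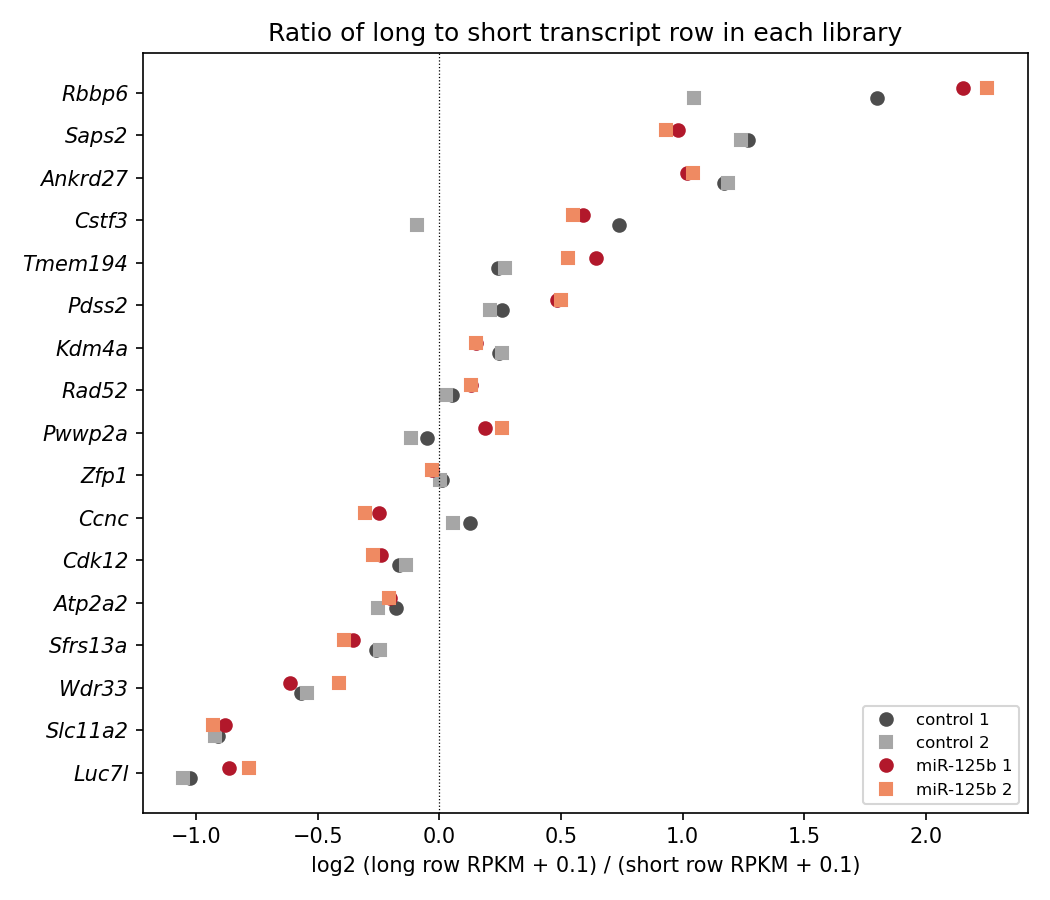
Log2 ratio of long to short row (x axis) in each of the 4 libraries for the 12 members named by smallest p and for the listed members Rbbp6, Cstf3, Wdr33, Slc11a2 and Atp2a2. Grey marks are control libraries and red or orange marks miR-125b libraries. The members span about -1 to 2, and gaps between groups are small beside the gaps between genes, except where control 2 lies apart (Rbbp6, Cstf3).

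Members that belong to the cleavage and polyadenylation machinery were Rbbp6, Cstf3 and Wdr33, which act in choosing and cutting 3′ ends and themselves have more than one. Rbbp6 (chr7:130114078-130146086) had a long row of 43.6, 33.4, 34.7 and 29.2 RPKM and a short row, whose last exon is read on into an intron, of 12.5, 16.1, 7.74 and 6.04 RPKM. The log2 ratio was 1.80 in control 1, 1.05 in control 2, 2.15 in miR-125b 1 and 2.25 in miR-125b 2. The short row was lower in both miR-125b libraries than in either control, and the ratio did not overlap between groups. The difference of 0.78 (SE 0.34, unadjusted p 0.12, adjusted p 0.87, limma) did not pass the test, and it was 0.40 without control 2 and 1.15 without control 1.

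Cstf3, the 77-kDa subunit of the cleavage stimulation factor, is known for an intronic poly(A) site (chr2:104430641-104505582). It had ratios of 0.74, -0.09, 0.59 and 0.55. Control 2 alone lay below 0, and the other 3 libraries were within 0.2 of each other. The difference was 0.25 (SE 0.37), and it was -0.17 without control 2. Wdr33, which recognises the poly(A) signal (chr18:31963711-32068640), had ratios of -0.57, -0.55, -0.61 and -0.41, which overlapped.

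For the machinery as a whole, 24 of 26 listed genes were in the tables and all 24 were tested at the gene level on log2(RPKM + 1). None had an unadjusted p under 0.05 or an adjusted p under 0.05 (limma; 9.38% of 10310 genes had an unadjusted and 0% an adjusted p under that level). 11 were higher and 13 lower in miR-125b cells, with a median of -0.04. Nudt21, the subunit of cleavage factor I that binds UGUA, was low at 1.76, 2.17, 2.78 and 1.69 RPKM. Cstf2t, a retrogene of Cstf2, stood at 25.04, 30.4, 23.6 and 19.2 RPKM (difference -0.36, SE 0.20). Cstf2 itself stood at 49.8, 36.9, 45.9 and 54.6 RPKM.

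Of 16 tested genes on the list of U1 snRNP and terminal exon regulators, 9 were higher and 7 lower, with a median of 0.07. Celf2, an RNA-binding protein of alternative splicing, had an unadjusted p of 0.03 (15.1, 16.2, 11.3 and 10.9 RPKM, adjusted p 0.51, limma). The U1 protein gene Snrnp70 stood at 296.9, 435.3, 250.7 and 285.5 RPKM, highest in control 2, and Snrpc at 15.0, 8.62, 18.2 and 17.6 RPKM, lowest there.

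Of the genes listed for well-known alternative 3′ ends, Slc11a2 and Atp2a2 were members and tested, and Calca was a member with at most 2 reads in a row. Slc11a2 encodes the iron transporter DMT1, whose transcripts end with or without an iron-responsive element (chr15:100218331-100253486). Its long row stood at 5.68, 5.42, 4.39 and 4.11 RPKM and its short row at 10.8, 10.4, 8.15 and 7.92. Both rows were lower in both miR-125b libraries, and their ratio was -0.91, -0.92, -0.88 and -0.93, which overlapped. Atp2a2, the calcium pump SERCA2 (chr5:122903522-122952234), had ratios of -0.18, -0.25, -0.20 and -0.21. The compared rows of Atp2a2 end 1 base apart and differ by 1410 bases elsewhere, so this ratio does not read its known alternative ends. The difference was 0.01 in each of these genes.

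Where the exons of the short row lie wholly within those of the long row, the reads of the extra part can be counted. This held for 30 members, of which 15 were tested, with 911 pairs of all kinds. None of the 15 had an unadjusted p under 0.05 (limma; 5.05% of the 911 had one), and none an adjusted p under 0.05 (0% of the 911). 4 of these members had a mean of at least 50 reads in the extra part.

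Hnrnpa2b1, an abundant hnRNP protein of pre-mRNA, was by far the best covered (chr6:51410434-51419893). The extra part took 38.2%, 36.4%, 40.0% and 39.1% of the reads of its long row, on between 3193 and 5423 reads. Both miR-125b libraries were above both controls, by less than 4 percentage points. Snx27, an endosomal sorting nexin (chr3:94301466-94386624), had 59.2%, 54.1%, 57.0% and 58.4%, which overlapped. Its long row holds an 8mer match to the seed and its short row none.

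In Snx12, Dclre1c and Taf1d the chosen rows have the same end, and the extra part lies inside the gene, so these 3 are no readout of the 3′ end. Snx12, another sorting nexin, had 52.5%, 63.3%, 53.1% and 52.7%, so that control 2 alone was high. Slc2a6, a hexose transporter, had 8.51%, 9.41%, 11.2% and 9.06%. Its matched last exons are 705 and 703 bases long, so this share too says little about the 3′ end. The level of Slc2a6 as a gene was 21.1 and 46.0 RPKM in control and 15.9 and 13.6 in miR-125b cells, a difference of -1.03 (SE 0.35, unadjusted p 0.02, adjusted p 0.48, limma), while the share of the extra part overlapped between groups. In Dclre1c, the nuclease Artemis, the extra part of 351 bases held 25, 23, 24 and 25 reads while the short row went from 132 and 156 reads to 104 and 92. In Taf1d the extra part took 6.24%, 3.17%, 6.57% and 6.59%.

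The remaining nested pairs named by density differed by few bases. The extra part held between 0 and 12 reads a library in Nelf, between 1 and 9 in Slc24a6, between 3 and 10 in Sh2b1 and between 0 and 2 in Fxyd4 and Ccdc157. In Fuk, whose rows differ by 5 bases, it held none in any library. No difference between groups was detectable at such counts.

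Seed matches were placed by matching rows to annotated transcripts, which succeeded for both rows of 353 members (81.5%) and of 210 tested members (84.3%). The match CTCAGGG was searched on the transcribed strand of the last exon. It was found in 18.4% of the long rows of members and in 5.95% of the short rows, beside 16.3% and 14.0% for the pairs of the other kinds. Last exons of long rows were longer (median 1606 against 527 bases). Per 1000 bases the long rows of members held 0.123 matches and the short rows 0.083, beside 0.126 and 0.123 in the other pairs.

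Among tested members the match was only in the long row in 33, only in the short row in 7, in both in 9 and in neither in 161. The question is whether rows with the match stood lower in miR-125b cells relative to rows without it. In the 33 members the median difference was 0.0008, with 17 higher and 16 lower. The groups did not overlap in 14 of them, 7 higher and 7 lower, and 3 had an unadjusted p under 0.05. Over all pairs tested these shares were 34.8% and 5.83%. In the 161 members with no match the median was 0.01, with 91 higher and 70 lower, and 13 had an unadjusted p under 0.05. In the 14 members with an 8mer in the long row and no match in the short row the median was 0.03, with 8 higher and 6 lower. In the 7 members with the match only in the short row it was 0.03, with 5 higher and 2 lower. The rows repeat the reads of their shared exons, so a change confined to one transcript is diluted in this ratio.

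**Figure D4:**
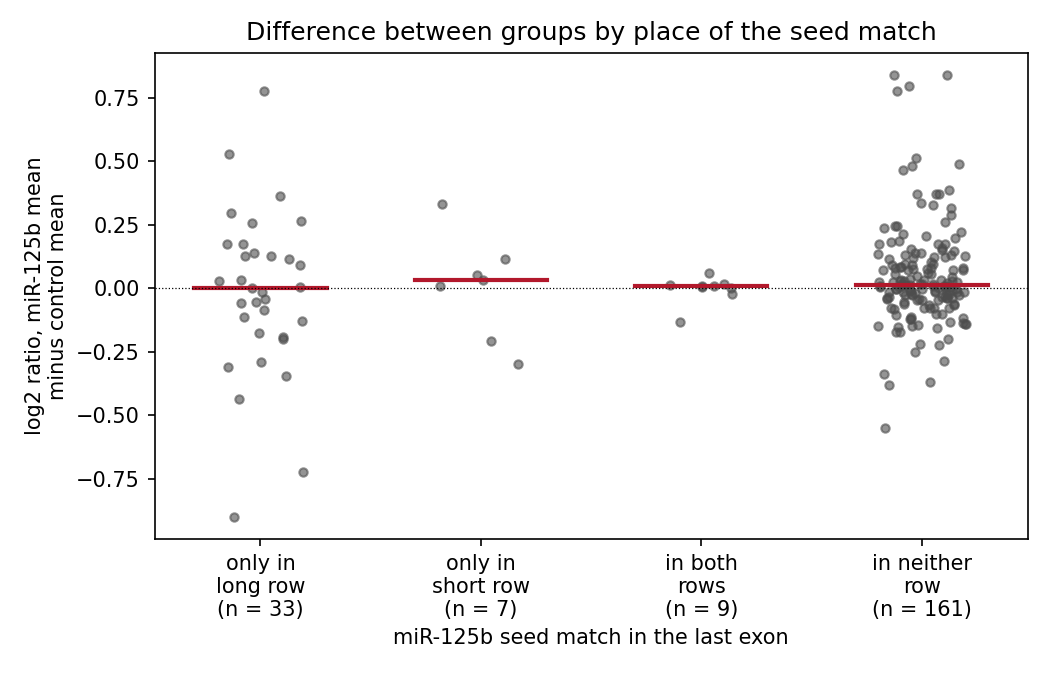
Difference of the log2 ratio, miR-125b mean minus control mean (y axis), for tested members by where the last exon holds the seed match (x axis), 1 point per member with the median as a red line. The medians lie between 0.0008 and 0.03, and members with the match only in the long row spread to both sides of 0.

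The members whose sites are printed show both directions. Lrp4, a receptor of the LDL receptor family with 2 matches in its long row (chr2:91297688-91354057), had long-row values of 3.11, 4.51, 4.16 and 3.84 RPKM and short-row values of 0.52, 1.37, 1.78 and 1.81. Its log2 ratios were 2.37, 1.65, 1.18 and 1.05, a difference of -0.90 (SE 0.32, unadjusted p 0.08, adjusted p 0.87, limma). The groups did not overlap in the ratio. The long row did overlap between groups, while the short row was higher in both miR-125b libraries, on 19, 46, 73 and 69 reads.

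Masp2, a serine protease of the lectin pathway of complement (chr4:147976653-147989589), had ratios of 1.56 and 1.69 in control and of 1.22 and 1.16 in miR-125b cells, a difference of -0.43 (SE 0.07, unadjusted p 0.01, adjusted p 0.66). Here too it was the short row that stood higher, at 3.23 and 1.81 RPKM in control and 3.83 and 4.47 in miR-125b cells, and the long row overlapped at 9.69, 6.08, 9.04 and 10.1 RPKM. P2rx7, an ATP-gated channel (chr5:123093920-123141441), had ratios of 0.10, 0.59, -0.11 and -0.64 on between 7 and 19 reads in the short row. Its long row was 2.26, 1.31, 1.27 and 0.64 RPKM, with both miR-125b libraries below both controls.

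Il1rap, the accessory chain of the interleukin-1 receptor, is known to have a soluble form made by an early end (chr16:26581791-26725233). Its long row stood at 6.73, 5.06, 5.18 and 3.93 RPKM and its short row at 4.05, 2.54, 3.34 and 2.86. The ratios were 0.72, 0.97, 0.62 and 0.44, with both miR-125b libraries below both controls (difference -0.31, SE 0.13, unadjusted p 0.12, limma).

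In the opposite direction, Adrbk2, a kinase of G protein-coupled receptors with a match in its long row (chr5:113339498-113444534), had ratios of 1.52 and 1.77 in control and of 2.10 and 2.25 in miR-125b cells, a difference of 0.53 (SE 0.14, unadjusted p 0.04, adjusted p 0.75). Its short row rested on 36, 37, 26 and 27 reads. Klhl25, a substrate adaptor of a cullin ligase (chr7:82993224-83019016), had ratios of -0.37 and -0.24 against -0.07 and -0.02. Its long row held an 8mer and stood at 6.34, 7.35, 6.65 and 7.05 RPKM, which overlapped.

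A few members that encode receptors or signalling proteins of blood cells were looked at after their values were seen. Fas, the death receptor, has a short row with its own last exon (chr19:34365149-34402260). Its long row stood at 4.61, 4.80, 5.92 and 8.09 RPKM and its short row at 2.41, 2.78, 2.28 and 3.07. The ratio was 0.91 and 0.77 in control and 1.34 and 1.37 in miR-125b cells, a difference of 0.51 (SE 0.07, unadjusted p 0.0077, adjusted p 0.61, limma). The long row was higher in both miR-125b libraries, and the short row, on 15 to 20 reads, overlapped.

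Ifnar2, a chain of the type I interferon receptor (chr16:91373028-91405832), had ratios of -0.64 and -0.76 in control and of -0.87 and -0.98 in miR-125b cells, a difference of -0.22 (SE 0.07, unadjusted p 0.07). Cd247, the zeta chain of the T cell receptor complex (chr1:167718820-167804117), had ratios of -0.04 and -0.37 against 0.29 and 0.13, on 35 to 46 reads in the short row. Wasl, the actin regulator N-WASP (chr6:24563811-24614995), had ratios of 1.28, 0.14, 1.30 and 1.68, where control 2 stood far below the other 3. The groups of Wasl did not overlap, but control 1 and miR-125b 1 nearly met.

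The largest positive differences were in 2 genes listed under clone-type symbols, each with rows of a separate last exon. The ratios of 2810002N01Rik (chr12:112951480-112993265) were 0.02 and -0.19 in control and 0.60 and 0.90 in miR-125b cells (difference 0.84, SE 0.16, unadjusted p 0.02, adjusted p 0.68). Its short row went from 7.69 and 13.8 RPKM to 5.22 and 3.87, while its long row overlapped at 7.81, 12.1, 7.99 and 7.31. The ratios of 1500011B03Rik, a noncoding gene (chr5:115258206-115263985), were -0.72 and -1.39 against -0.38 and -0.05, on between 31 and 66 reads a row.

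At the gene level, 262 members were tested among 10310 genes. None had an adjusted p under 0.05 (0% of all), and 16 had an unadjusted one (6.11%, beside 9.38%), 6 higher (2.29%, beside 4.17%) and 10 lower (3.82%, beside 5.21%) in miR-125b cells. Zbp1, a sensor of Z-form nucleic acid, stood at 22.5, 87.8, 17.8 and 3.18 RPKM in its long row, with a difference of -2.37 (unadjusted p 0.02, adjusted p 0.49, limma). It was -3.45 without miR-125b 1 and -1.28 without miR-125b 2. None of the 16 had an unadjusted p under 0.05 in the ratio of its ends. Itsn1, a scaffold protein of endocytosis, was an example: its gene-level difference was 1.19 (unadjusted p 0.01, adjusted p 0.44), and the ratio of its ends was -1.62, -1.63, -1.66 and -1.60.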

How the data were processed

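The authors deposited one table of RPKM values per library, with 26982 RefSeq transcript rows. The build was mm9 (submitters' processing notes), and no aligner or counter is named in the labels or file headers. Tables were joined by transcript, position and strand with pandas 2.3.3. limma 3.58.1 (trended prior, 2-sided, Benjamini-Hochberg, group as the only term) was run in R 4.3.3 on the log2 ratio of long to short row, with 0.1 RPKM added, over all 1972 genes with 2 rows of different length and a mean of at least 1 RPKM in each. Nested pairs were tested on the extra reads with 0.5 reads added, and genes on log2(RPKM + 1) of the longest row. A simulated data set with known changes was also run through the ratio test. It drew the reads of long and short rows independently, whereas real rows repeat the reads of shared exons. It therefore cannot vouch for the test on these data. Named members were the 12 with the smallest unadjusted p and at least 50 reads in both rows, up to 8 nested pairs by p and 6 by highest and lowest density of the extra part, and up to 4 per gene list. Others are marked as chosen after their values were seen. The members and lists were chosen with earlier results of these data known.

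Rows were matched to GENCODE M21 transcripts by sequence of exon lengths. A strict match (same RefSeq accession, exon number and inner exon lengths, last exon within 50 bases) covered both rows of 199 members (46.0%). After that coverage and its site counts were seen, the match was loosened in steps, to other transcripts of the gene, to the last 2 inner exons and to 300 bases at the end, and the search was moved from the 3′ UTR to the last exon, until 353 (81.5%) were covered. Sites within 300 bases of an end can thus be missed. A comparison of poly(A) signals near the ends was tried under the strict match and is void at that coverage.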

Additional observations from a re-analysis of the deposited data

How the results depend on the processing

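No alternative gave a member an adjusted p under 0.05 in the ratio or the extra part (limma). The number of members with an unadjusted p under 0.05 in the ratio was 23. It ranged from 24 to 50 when 1 library was left out, 50 being without control 1 (34 higher, 16 lower), and from 20 (at least 50 reads in both rows) to 30 (pseudocount of 1 RPKM) under the other settings. The median difference of members ranged from -0.0033 (without control 2) to 0.044 (without control 1). For the extra part that number was 0, and ranged from 0 to 4 with a library left out (4 without control 1: Dclre1c, Slc24a6, Snx12 and Taf1d), and was 2 with no filter on the level (Eda and Polr2k). At the gene level it was 16 and ranged from 5 (without miR-125b 2) to 65 (without control 1), and the number with an adjusted p under 0.05 ranged from 0 to 1, Zbp1 without miR-125b 1. For cleavage and polyadenylation genes it was 0 and ranged from 0 to 3 (Cpsf2, Cstf2t and Cstf3 without control 1), and was 1 with the shortest row of each gene (Rbbp6, difference -0.95). Shares over all pairs or all genes under the alternative settings are not given here. Whether the changes in these counts are particular to members therefore cannot be told. The cause of these changes was not tested.

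With the replicate block, which the labels do not support as a pairing, 26 members had an unadjusted p under 0.05 in the ratio and 1 in the extra part (Prdxdd1). Deviations of the libraries numbered 1 correlated at 0.19 for the ratio, -0.01 for the extra part and 0.02 for genes.

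Of 348 values of single named members under alternatives, 335 kept their sign and side of the threshold and 13 changed sign. The settings that change only the filter, the prior or the block leave each gene's difference as it was. Their values are in the 348 and could not change sign, so the tally is no measure of stability. With 1 library left out, differences ranged from -0.027 to 0.048 for Atp2a2, from -0.17 to 0.66 for Cstf3, from -0.079 to 0.000051 for Fxyd4, from -0.054 to 0.0017 for Nelf, from -0.00027 to 0.0079 for Sh2b1, from -0.014 to 0.036 for Slc11a2, from -0.038 to 0.0066 for Slc24a6, from -0.36 to 0.011 for Snx12, from -0.050 to 0.12 for Snx27 and from -0.056 to 0.14 for Wdr33. The sign changed without control 1 for Fxyd4, without miR-125b 1 for Slc11a2, without miR-125b 2 for Sh2b1 and Wdr33, and without control 2 for the others. With the most distal against the most proximal end it changed for Dclre1c (-0.19), Snx12 (0.086) and Wdr33 (-0.0046).

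A prior trend on the level of both rows, added after seeing the data, left 24 members with an unadjusted p under 0.05. The loosened transcript match and the search of last exons, on which the site results rest, were also chosen after seeing the data. Under the strict match with sites in the 3′ UTR, which was tried first, the match was only in the long row in 18 tested members (median difference -0.02, 9 higher and 9 lower), only in the short row in 1 (-0.21), in both in 3 and in neither in 89 (median 0.004).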
